A study of Homo sapiens with 6 samples.

Results

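RNA from ITGB4-low SUM159 cells recovered from mouse lungs was compared with RNA from the same ITGB4-low cells in culture. SUM159 is a triple-negative human breast cancer line, and ITGB4 encodes integrin beta-4. Among the 6 libraries of the series, the comparison used 5, chosen by their column labels: 3 from lung-recovered cells and 2 from cultured controls. Of the lung libraries, 2 came from clones 1 and 3 in lungs that also held LM2 cells, a lung-metastatic derivative of MDA-MB-231. The other came from clone 1 after bleomycin, which causes lung injury and inflammation, was given to the mice by the tracheal route. The control libraries were clones 1 and 3 grown in dishes, and the remaining library, cultured ITGB4-high SUM159 cells, served as a further point of comparison. All genes were measured, and each lung library was set over the control of its own clone.

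Several properties of the design limit what the groups can show. Lung cells were injected through the tail vein, dissociated with the lung, kept overnight in a dish and sorted for tdTomato, per the series' design text, whereas controls were never in a mouse. The trigger, the passage through the lung and the recovery steps therefore go together and cannot be told apart, and lungs without a trigger were not analysed here. LM2 cells are human as well, so reads of any LM2 cell that passed the sort would be counted with those of SUM159. The number of mice behind each library is not given in the sources used here. The bleomycin library and the LM2 library of clone 1 share the control of clone 1, so their ratios are not independent, and the 3 lung libraries come from 2 clones.

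As background, ITGB4 pairs with integrin alpha-6 and anchors epithelial cells to laminin-332 at hemidesmosomes, where it is linked to the keratin cytoskeleton. In carcinoma cells that have undergone an epithelial-mesenchymal transition, high ITGB4 marks cells that keep part of the epithelial program. Inflammation in the lung exposes disseminated tumour cells to cytokines that act through NF-kB, STAT and interferon signalling. TGF-beta2 and GAS6, the ligand of the receptors AXL, MERTK and TYRO3, have both been described in bone marrow niches that hold disseminated tumour cells dormant.

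Total counts were 13647997, 15298001 and 15446892 in the lung libraries of LM2 clone 1, LM2 clone 3 and bleomycin clone 1, against 14013264 and 22222121 in controls 1 and 3. The libraries of the LM2 pair differed more from each other (biological coefficient of variation 0.305, 13059 genes) than those of the control pair (0.08, 13883 genes). The 5 markers of basal or mesenchymal breast cells (VIM, CD44, FN1, ZEB1 and AXL) summed to between 8172 and 11150 CPM in lung libraries and to 14180 and 14570 CPM in controls, where CPM is the read count scaled to library size with TMM factors. The 7 lymphocyte markers summed to at most 0.128 CPM in lung libraries and 0.184 CPM in controls, with 4 at 0 in all 5 libraries, and the 14 macrophage markers to 5.42, 5.31 and 14.8 CPM, against 8.17 and 7.81 CPM in controls. The 7 endothelial markers summed to 11.2 to 26.5 CPM in lung libraries against 83.5 and 121 CPM, a difference carried by KDR. Without KDR the sums were 11.1, 20.01 and 21.8 CPM in LM2 clone 1, LM2 clone 3 and bleomycin clone 1, against 12.7 and 15.6 CPM. The 10 lung epithelial markers stood at 3.85 to 4.60 CPM against 6.79 and 6.02 CPM, with 4 at 0. The 7 fibroblast markers summed to 569, 823 and 500 CPM in LM2 clone 1, LM2 clone 3 and bleomycin clone 1, against 125 and 162 CPM, a difference carried by COL1A1 in all 3 and by PDGFRA in both clone 1 libraries. The other 5 summed to 29.5, 83.6 and 84.03 CPM in the same lung libraries, against 56.2 and 97.2 CPM in controls, below the control of the own clone in both LM2 libraries. These markers are human genes counted on the human build, whereas cells of the host lung are mouse. Low sums therefore cannot show that no mouse cells passed the sort. The part of these markers in the results below was not tested. In these bulk samples, fewer cells of a type and less RNA per cell cannot be told apart.

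Of 15673 genes tested, 78 (0.498%) differed between lung-recovered cells and controls, 42 of them higher (0.268%) and 36 lower (0.23%), at an adjusted p under 0.05 in edgeR's quasi-likelihood test. Among the 78, 75 are protein-coding. All 78 had the same sign in the 3 lung libraries, and 77 were past 2-fold (a log2 ratio of 1) in each, with DSEL (adjusted p = 0.0491 in edgeR's quasi-likelihood test, 0.0706 with the clone block) at -0.98 in LM2 clone 1 as the exception. In none of the 78 did the lung and control libraries overlap, which also held for 20.4% of all genes tested in the higher direction and 25.4% in the lower. The ratios of the 3 lung libraries lay within 1 log2 unit of each other for 55 of the 78. For the genes that rose, the median log2 ratio over the control of the own clone was 3.61 (LM2 clone 1), 3.74 (LM2 clone 3) and 3.69 (bleomycin clone 1). For those that fell it was -2.99, -2.57 and -2.91 in the same libraries. The count rests on each library: it was 4 without bleomycin, 393 without LM2 clone 1, 1012 without LM2 clone 3, and 0 without control 1 or control 3, where 1443 and 1005 genes had an unadjusted p under 0.05 in edgeR. Where a control is left out, the other stands alone and is assumed to vary like the lung libraries. Without the ITGB4-high library 59 genes passed, and CDCP1, CX3CL1, IL16, KRT17, LRP1, SERPINF1, SGPP2, TM4SF1 and TPM1, described below, did not (adjusted p = 0.0514 to 0.0552 in edgeR). Genes named after their values were seen, such as DSEL and TMEM98, were not followed in that fit. With the clone as a block, 38 genes passed, 35 of them among the 78, and the count was 31 with a filter at 50 counts, 2152 with no filter and 1278 with DESeq2.

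**Figure D1:**
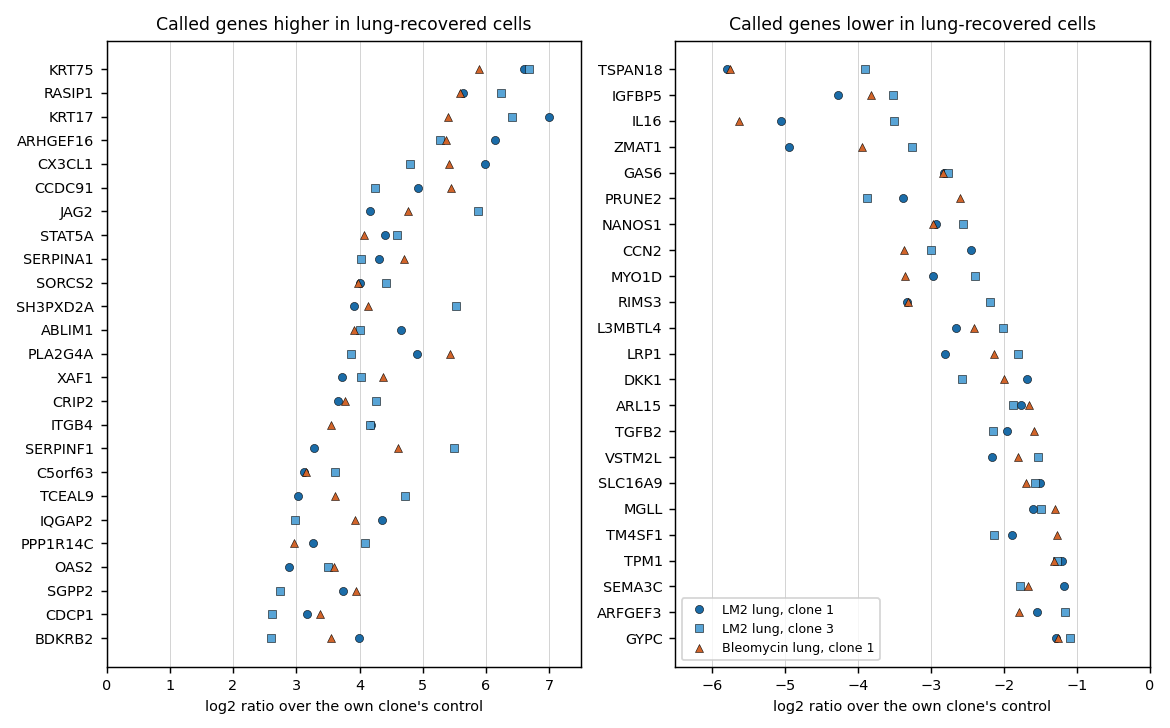
Log2 ratios of the 25 genes that rose (left) and the 23 that fell (right) and met the naming rule, each lung library over the control of its own clone, ordered by the smallest of the 3 ratios. All points of a gene lie on 1 side of 0, from KRT75 at 5.88 to 6.68 down to GYPC at -1.09 to -1.28. The KRT17 ratios rest on controls with 0 and 2 counts.

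ITGB4 rose, as did the keratins KRT75 and KRT17. ITGB4 (ENSG00000132470, chromosome 17, 75721328 to 75757818, plus strand) had 471, 442 and 306 CPM in LM2 clone 1, LM2 clone 3 and bleomycin clone 1, against 25.9 and 24.6 CPM in controls 1 and 3. The lung libraries thus lay far above both controls and around the 384 CPM of the cultured ITGB4-high library. The fitted change was 16.1-fold (log2 4.01, SE 0.25, adjusted p = 0.0116, edgeR). KRT75 (chromosome 12, 52424070 to 52434525, minus strand), a keratin of the hair follicle companion layer, reached 273, 244 and 167 CPM in the same lung libraries against 2.701 and 2.252 CPM in controls. Its fitted change of 92.4-fold (log2 6.53, SE 0.32, adjusted p = 0.006) rested on 39 and 49 counts in the controls. KRT17, a keratin of basal and stressed epithelia, had 208, 291 and 82 counts in the lung libraries against 0 and 2 counts in controls (adjusted p = 0.0491, and 0.0544 with the clone block). Reads shared between close keratin paralogs could be split by the counting, so single keratin values are uncertain to that extent.

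Of the 15 keratins tested, 2 rose in the test and 7 had ratios past 1 in all 3 lung libraries, with KRT4 past -1 in all 3. The median fitted log2 change of the list was 2.45, against 0.003 over all genes tested, of which 1.99% had ratios past 1 in all 3. KRT5, the basal partner of KRT14, stood at 212, 113 and 12.3 CPM in LM2 clone 1, LM2 clone 3 and bleomycin clone 1, against 2.29 and 2.67 CPM in controls, and did not pass (adjusted p = 0.118). KRT14 was at 9.45, 7.42 and 1.35 CPM against 0.069 and 0.046 CPM, which are under the floor of 3 counts (adjusted p = 0.08). KRT6A was at 20.6, 6.33 and 5.06 CPM against 0.139 and 0.506 CPM (adjusted p = 0.0846). In CPM, the bleomycin library was the lowest lung library for KRT5, KRT14 and KRT6A, whereas over the control of the own clone KRT6A was lowest in LM2 clone 3 (log2 ratio 3.35).

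All 11 genes of the hemidesmosome and laminin-332 list were tested, and ITGB4 alone passed. Past 1 in all 3 ratios were 4 of the 11, against 1.99% of all genes tested. In all 3 lung libraries 6 were higher and 1 lower, against 23.9% and 29.1% of all genes tested. The median fitted change of the list was 0.67. ITGA6, the alpha-6 partner of ITGB4, was at 518, 301 and 371 CPM against 156 and 163 CPM, without overlap, but its log2 change of 1.32 did not pass (adjusted p = 0.0808). The laminin-332 chain LAMB3 was past 1 in all 3 ratios, at 593, 22.9 and 118 CPM against 7.41 and 5.10 CPM. Collagen XVII, COL17A1, was at 9.92, 2.37 and 1.60 CPM against 0.139 and 0.092 CPM. LAMB3 and COL17A1 did not pass the test (adjusted p = 0.152 and 0.117), and LM2 clone 1 was the highest library in both. By contrast, the plakin gene DST differed little, at 777, 736 and 697 CPM against 759 and 738 CPM (log2 -0.02, adjusted p = 0.933).

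Junction and polarity genes changed in part. Desmoplakin, DSP, which ties keratins to desmosomes, was at 176, 158 and 144 CPM in LM2 clone 1, LM2 clone 3 and bleomycin clone 1, against 55.5 and 48.8 CPM in controls, a 3.05-fold rise (adjusted p = 0.0231, and 0.0523 with the clone block). It was the 1 member of 8 tested on the desmosome list that passed. CELSR1, a cadherin of planar cell polarity, rose 3.17-fold with little spread, at 79.2, 74.0 and 78.3 CPM against 26.4 and 22.3 CPM (adjusted p = 0.0209). PRICKLE1, a cytoplasmic planar polarity protein, moved the other way, to 0.387, 0.128 and 0.385 CPM against 7.41 and 6.25 CPM (log2 -4.49, adjusted p = 0.0274). Both are named after their values were seen. Of 16 tight junction and polarity genes tested, 0 passed and 3 were past 1 in all 3 ratios, against 1.99% of all genes tested. The claudin CLDN1 was at 390, 66.0 and 107 CPM against 5.96 and 5.42 CPM (adjusted p = 0.0799). The others were the cadherin CDH3 and the epithelial transcription factor EHF. CDH1 and EPCAM were on that list and did not pass the filter on low counts.

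**Figure D2:**
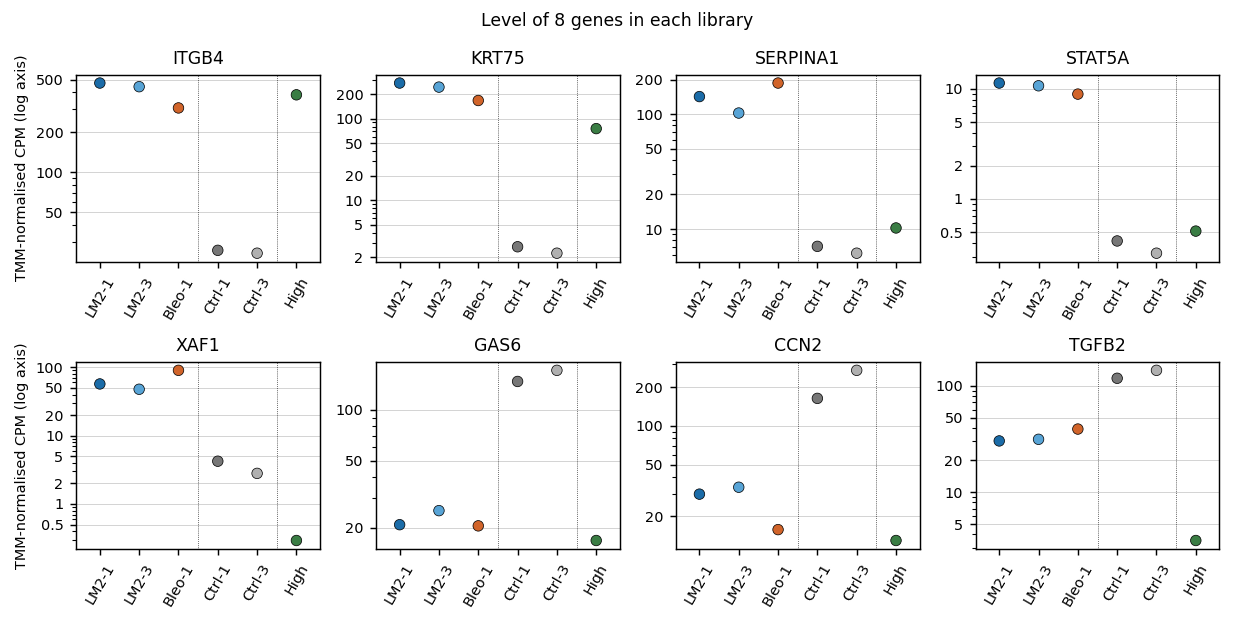
TMM-normalised CPM on log axes of 8 genes in each library: lung cells under LM2 (LM2-1, LM2-3) and bleomycin (Bleo-1), controls (Ctrl-1, Ctrl-3) and cultured ITGB4-high cells (High), each point 1 library and the digit its clone. ITGB4 lies at 306 to 471 CPM in lung cells, against 24.6 and 25.9 CPM in controls, while XAF1 is at 47.8 CPM or more in lung cells and at 0.292 CPM in ITGB4-high cells.

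On the list drawn up for complement and acute phase genes, SERPINA1 and SERPINF1 rose. SERPINA1 (chromosome 14, 94376747 to 94390693, minus strand), which encodes the protease inhibitor alpha-1 antitrypsin, was at 143, 103 and 187 CPM in LM2 clone 1, LM2 clone 3 and bleomycin clone 1, against 7.07 and 6.16 CPM in controls. Its change was 21.8-fold (log2 4.45, SE 0.32, adjusted p = 0.0149), and the ITGB4-high library stood near the controls at 10.2 CPM. SERPINF1, the secreted serpin known as pigment epithelium-derived factor, was at 13.95, 36.8 and 34.9 CPM against 1.32 and 0.690 CPM (adjusted p = 0.0476, and 0.0629 with the clone block). These were the 2 members called of 24 tested on the complement and acute phase list, against 0.268% of all genes tested called higher. Past 1 in all 3 ratios were 9 members, against 1.99% of all genes tested. Among them the complement protease C1R was at 15.0, 14.1 and 48.8 CPM against 2.36 and 3.17 CPM (adjusted p = 0.101). The median fitted change of that list was 1.30. Its library medians were 1.43 (LM2 clone 1), 0.26 (LM2 clone 3) and 1.52 (bleomycin clone 1).

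CX3CL1, a chemokine tethered to the membrane, had 272, 93 and 221 counts in LM2 clone 1, LM2 clone 3 and bleomycin clone 1 against 3 and 2 counts in controls (log2 6.53, SE 0.83, adjusted p = 0.0486). It was the 1 member called of 28 tested on the NF-kB and inflammatory cytokine list. On that list 24 members were higher in all 3 lung libraries, which held for 23.9% of all genes tested. Of its members, 10 were past 1 in all 3, against 1.99% of all genes tested, and the median fitted change of the list was 2.84. Its median ratio was 3.65 for LM2 clone 1 and 2.54 for bleomycin clone 1, but 0.80 for LM2 clone 3. IL6 was at 68.5, 8.57 and 26.7 CPM against 2.01 and 2.80 CPM (adjusted p = 0.127). CXCL8, a neutrophil chemokine, was at 1058, 34.5 and 143 CPM against 10.9 and 19.4 CPM (adjusted p = 0.185). IL1A, an alarmin cytokine, was at 971, 62.2 and 63.7 CPM against 9.14 and 7.68 CPM (adjusted p = 0.162). The adhesion receptor VCAM1 and the chemokine CCL5 were past 1 in all 3 ratios as well (adjusted p = 0.0986 and 0.0735). In CPM, LM2 clone 3 was the lowest lung library for IL6, CXCL8, IL1A and VCAM1. Over the control of the own clone, IL1A was instead lowest in bleomycin clone 1 (log2 ratio 2.78, against 2.998 in LM2 clone 3).

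Interferon-linked genes split within their list. XAF1 (chromosome 17, 6755447 to 6775647, plus strand), an interferon-induced binding partner of the apoptosis inhibitor XIAP, was at 57.1, 47.8 and 90.3 CPM in LM2 clone 1, LM2 clone 3 and bleomycin clone 1, against 4.23 and 2.80 CPM in controls. This was an 18.7-fold rise (adjusted p = 0.0235). OAS2, which makes the activator of RNase L, was at 19.3, 22.1 and 31.7 CPM against 2.49 and 1.84 CPM, an 11.3-fold rise (adjusted p = 0.0236). Bleomycin was the highest library for both genes. They were the 2 called of 37 tested on the type I interferon list, against 0.268% of all genes tested called higher. Of the 37, 15 were higher and 8 lower in all 3 lung libraries, against 23.9% and 29.1% of all genes tested. Past 1 in all 3 ratios were 3 members, against 1.99%, and past -1 was 1, against 2.92%. Of those not called, IFI27 was past 1 in all 3 ratios (2.27, 1.33 and 3.61), whereas RSAD2 was past -1 in all 3 (-2.55, -3.02 and -2.49). On the antigen presentation and interferon-gamma list, CXCL10 passed among 27 tested, with 57, 48 and 65 counts in lung libraries against 1 and 4 counts in controls (adjusted p = 0.0355, and 0.0544 with the clone block). CXCL10 was the 1 called of these 27, against 0.268% of all genes tested called higher. With it, 4 members were past 1 in all 3 ratios, against 1.99% of all genes tested. The others were CXCL11, GBP4 and GBP5, with adjusted p = 0.0704, 0.0631 and 0.0654 in edgeR. Of the 27, 10 were higher and 5 lower in all 3 lung libraries, against 23.9% and 29.1% of all genes tested.

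Genes of lipid and peptide mediators, grouped here after their values were seen, changed in both directions. PLA2G4A, the cytosolic phospholipase that frees arachidonic acid, had 128, 90 and 224 counts in LM2 clone 1, LM2 clone 3 and bleomycin clone 1, against 3 and 6 counts in controls (log2 5.30, SE 0.58, adjusted p = 0.0363). SGPP2, a sphingosine-1-phosphate phosphatase, was at 40.3, 18.4 and 46.5 CPM against 2.91 and 2.62 CPM (adjusted p = 0.0491). BDKRB2, the bradykinin B2 receptor, was at 29.4, 14.3 and 21.7 CPM against 1.73 and 2.25 CPM (adjusted p = 0.039, and 0.0544 with the clone block). PTGS2, the inducible cyclooxygenase downstream of arachidonic acid, was past 1 in all 3 ratios (5.44, 2.36 and 3.59) and did not pass (adjusted p = 0.109). MGLL, which breaks down the endocannabinoid 2-AG, fell to 15.5, 19.0 and 19.0 CPM against 47.2 and 53.4 CPM (adjusted p = 0.0361, and 0.0544 with the clone block).

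Promoters of CXCL10, XAF1 and SGPP2, and of the YAP target CCN2 described below, are shown because these genes moved in all 3 lung libraries and their promoters hold the motifs searched. Each line gives the 250 bases before the RefSeq start of transcription (GRCh38.p14, 5′ to 3′ on the gene's strand). Capitals mark matches on either strand: in CXCL10, XAF1 and SGPP2 to the NF-kB core GGANTTTCC or the interferon-stimulated element core AAANNGAAA, and in CCN2 to the TEAD core GGAATG alone. CXCL10 is at chr4:76023498-76023747 (minus), with the NF-kB match at -176 and the interferon match at -220 from the start. XAF1 is at chr17:6755796-6756045 (plus), with its interferon match at -31. SGPP2 is at chr2:222423738-222423987 (plus), with its NF-kB match at -138. CCN2 is at chr6:131951373-131951622 (minus), with TEAD matches at -169, -104 and -95, and it also holds an interferon core match at -222, left in lower case.
CXCL10: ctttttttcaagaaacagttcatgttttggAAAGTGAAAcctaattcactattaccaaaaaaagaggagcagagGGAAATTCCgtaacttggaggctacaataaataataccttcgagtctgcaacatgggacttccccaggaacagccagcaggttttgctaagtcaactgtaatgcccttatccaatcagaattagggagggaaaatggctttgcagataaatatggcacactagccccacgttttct
XAF1: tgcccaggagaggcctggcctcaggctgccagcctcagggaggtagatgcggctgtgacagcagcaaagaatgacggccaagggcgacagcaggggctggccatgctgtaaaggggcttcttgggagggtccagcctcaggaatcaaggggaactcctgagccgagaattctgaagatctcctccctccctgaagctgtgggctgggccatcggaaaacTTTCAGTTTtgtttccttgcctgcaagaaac
SGPP2: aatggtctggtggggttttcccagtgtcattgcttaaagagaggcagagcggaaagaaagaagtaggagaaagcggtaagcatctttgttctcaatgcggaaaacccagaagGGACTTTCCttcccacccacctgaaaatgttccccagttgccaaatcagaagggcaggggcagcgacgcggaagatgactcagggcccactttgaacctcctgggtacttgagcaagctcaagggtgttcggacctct
CCN2: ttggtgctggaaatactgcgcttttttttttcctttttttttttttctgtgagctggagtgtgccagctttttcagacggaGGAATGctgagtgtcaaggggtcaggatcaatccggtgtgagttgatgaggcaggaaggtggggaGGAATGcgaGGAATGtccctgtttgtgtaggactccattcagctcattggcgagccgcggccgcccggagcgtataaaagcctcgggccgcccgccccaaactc
Of the 78 genes, 63 had a promoter in the RefSeq table. Over its 300 bases, from 250 before to 50 after the start, the NF-kB core was in 2 of 34 promoters of genes that rose (5.9%) and in 0 of 29 of genes that fell, against 1.7% of 10871 promoters of tested genes. The interferon core was in 8.8% of promoters of genes that rose and 10.3% of genes that fell, against 7.4% of all. The TEAD core was in 17.6% of promoters of genes that rose and 24.1% of genes that fell, against 1192 of all 10871. Larger sets were the genes with all 3 ratios past 1 in 1 direction, with 205 promoters of higher and 311 of lower genes. There the TEAD core was in 10.7% and 12.9%, near its share of all promoters. In the same sets the NF-kB core was in 4.9% and 1.3%, and the interferon core in 11.7% and 9.3%. These are matches of letters in the reference, with no test, and the TEAD core was found in both directions of change.

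Genes of actin, podosomes and LIM proteins changed in both directions: 4 of 29 tested rose and 2 fell. Over all genes tested, 0.268% rose and 0.23% fell. The list was chosen with earlier results of these data known. RASIP1 (chromosome 19, 48720587 to 48740721, minus strand), an effector of the GTPase Rap1, had the smallest adjusted p of all genes. It was at 23.3, 26.9 and 22.6 CPM in LM2 clone 1, LM2 clone 3 and bleomycin clone 1, against 0.346 and 0.230 CPM in controls (84.6-fold, log2 6.40, SE 0.28, adjusted p = 0.00598). SH3PXD2A, the scaffold TKS5 of podosomes and invadopodia, was at 98.1, 129 and 114 CPM against 6.37 and 2.67 CPM (25.6-fold, adjusted p = 0.0227). The actin-binding LIM protein ABLIM1 rose 19.2-fold, at 141, 88.5 and 84.0 CPM against 5.47 and 5.38 CPM. The cysteine-rich LIM protein CRIP2 rose 17.5-fold with a narrow range, at 18.1, 19.1 and 19.6 CPM against 1.32 and 0.873 CPM. MYO1D, an unconventional myosin, fell to 3.02, 3.52 and 2.31 CPM against 24.7 and 19.0 CPM (adjusted p = 0.0209), and tropomyosin TPM1 to 127, 153 and 117 CPM against 292 and 370 CPM (adjusted p = 0.0491, and 0.0539 with the clone block). Of other regulators of small GTPases, ARHGEF16, an exchange factor, had 241, 243 and 170 counts against 2 and 6 counts (adjusted p = 0.0165), and the scaffold IQGAP2 was at 53.2, 28.0 and 39.9 CPM against 2.49 and 3.45 CPM (adjusted p = 0.0261).

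Among signalling and transcription genes, STAT5A, JAG2 and ID1 rose. STAT5A (chromosome 17, 42287547 to 42311943, plus strand), a transcription factor activated by prolactin and cytokines, was at 11.3, 10.7 and 8.97 CPM in LM2 clone 1, LM2 clone 3 and bleomycin clone 1, against 0.416 and 0.322 CPM in controls (27.8-fold, log2 4.799, SE 0.32, adjusted p = 0.0134). The Notch ligand JAG2 was at 27.1, 60.9 and 40.8 CPM against 1.39 and 0.919 CPM (37.9-fold, adjusted p = 0.0231). Of 15 Notch pathway genes tested JAG2 alone passed, and the target HES1 was past 1 in all 3 ratios at 46.3, 45.6 and 53.8 CPM against 9.35 and 18.9 CPM (adjusted p = 0.0745). ID1, an inhibitor of basic helix-loop-helix factors, was at 85.6, 56.9 and 57.1 CPM against 8.59 and 11.3 CPM (6.66-fold, adjusted p = 0.0274, and 0.0523 with the clone block), and ID3 did not pass (adjusted p = 0.0846). The sorting receptor SORCS2 was at 13.02, 10.4 and 12.8 CPM against 0.693 and 0.368 CPM (adjusted p = 0.0209). CDCP1, a membrane substrate of Src kinases, was at 221, 115.8 and 257 CPM against 24.6 and 18.8 CPM (9.15-fold, adjusted p = 0.0476). The stress-induced cytokine GDF15 was at 33.2, 24.3 and 28.9 CPM against 5.33 and 2.94 CPM (7.03-fold, adjusted p = 0.0379). ALDH1A3, a retinaldehyde dehydrogenase on the breast stem cell list, had 49, 78 and 98 counts against 3 and 4 counts (adjusted p = 0.0258, and 0.0523 with the clone block). It was the only 1 of 15 tested members of that list to pass. Of the 15, 4 were higher and 6 lower in all 3 lung libraries, against 23.9% and 29.1% of all genes tested. The median fitted change of the list was -0.03.

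GAS6 had the smallest adjusted p among the genes that fell. GAS6 (ENSG00000183087, chromosome 13, 113820549 to 113864067, minus strand) was at 20.8, 25.3 and 20.5 CPM in LM2 clone 1, LM2 clone 3 and bleomycin clone 1, against 148 and 172 CPM in controls. Its log2 ratios were nearly equal, at -2.82, -2.76 and -2.84, and the fitted level was 0.139 of control (log2 -2.85, SE 0.15, adjusted p = 0.00678). The divergent transcript GAS6-DT fell with it, to 6, 14 and 4 counts against 123 and 226 counts (adjusted p = 0.0407). Of the 3 GAS6 receptors, AXL was at 245, 348 and 188 CPM against 479 and 493 CPM (adjusted p = 0.152), and MERTK and TYRO3 did not pass (adjusted p = 0.235 and 0.903). LRP1, a large endocytic receptor, fell to 35.1, 69.7 and 55.8 CPM against 246 and 244 CPM (log2 -2.20, adjusted p = 0.0483, and 0.0544 with the clone block). GAS6 and LRP1 were the 2 members called of 14 tested on a list of GAS6, its receptors and the lipoprotein receptor family. Over all genes tested, 0.23% were called lower. The list was chosen with earlier results of these data known, so its count is a description only. The median of the list was -0.06.

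TGFB2, CCN2 and DKK1, from the TGF-beta, YAP and WNT lists, fell. TGFB2 (chromosome 1, 218346235 to 218444619, plus strand) was at 30.4, 31.5 and 39.3 CPM in LM2 clone 1, LM2 clone 3 and bleomycin clone 1, against 118 and 140 CPM in controls (log2 -1.94, SE 0.16, adjusted p = 0.0209). Of 20 TGF-beta pathway genes tested it alone passed, and TGFB1 was at 67.0, 49.5 and 62.6 CPM against 47.2 and 51.9 CPM (adjusted p = 0.397). CCN2, the matricellular protein once called CTGF and a target of YAP with the TEAD matches shown above, was at 29.7, 33.6 and 15.8 CPM against 164 and 270 CPM (log2 -3.04, SE 0.37, adjusted p = 0.0461). CCN1 and ANKRD1, further YAP targets, were past -1 in all 3 ratios with adjusted p = 0.118 and 0.113. Of 22 YAP targets tested, 2 fell, against 0.23% of all genes tested, and the median was -0.54. Of the 22, 13 were lower in all 3 lung libraries, which held for 29.1% of all genes tested. The secreted WNT antagonist DKK1 fell to 4.03, 2.88 and 3.21 CPM against 13.2 and 17.8 CPM (adjusted p = 0.0414, and 0.0629 with the clone block). WNT5A, a ligand of non-canonical WNT signalling, was at 23.2, 102 and 43.6 CPM against 497 and 653 CPM and did not pass (adjusted p = 0.0751). Of 25 WNT pathway genes tested, 1 fell, and the median was -0.56.

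Other decreases covered secreted and membrane proteins. The tetraspanin TSPAN18 was at 0.620, 2.30 and 0.641 CPM in LM2 clone 1, LM2 clone 3 and bleomycin clone 1, against 41.1 and 36.1 CPM in controls (log2 -4.99, SE 0.53, adjusted p = 0.0363). IL16, a chemoattractant cytokine, was at 0.542, 1.79 and 0.321 CPM against 22.03 and 21.6 CPM (adjusted p = 0.0491, and 0.0539 with the clone block). IGFBP5, an IGF-binding protein, was at 0.387, 1.22 and 0.577 CPM against 9.84 and 15.2 CPM (adjusted p = 0.0414). ENPP5 had 0, 2 and 0 counts against 49 and 88 counts, and TMEM98 1, 6 and 0 counts against 125 and 228 counts (adjusted p = 0.0461 and 0.0491, and 0.0602 and 0.0545 with the clone block). Both are named after their values were seen. At higher levels, the semaphorin SEMA3C fell to 247, 186 and 176 CPM against 558 and 641 CPM (log2 -1.56, adjusted p = 0.0414, and 0.0672 with the clone block), and the membrane protein TM4SF1 to 30.1, 37.5 and 46.6 CPM against 112 and 164 CPM (adjusted p = 0.0491, and 0.0672 with the clone block).

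No listed gene of the mesenchymal state passed the test. Of 11 transcription factors of the epithelial-mesenchymal transition tested, 0 passed, and their median was 0.16. ZEB1, a repressor of epithelial genes, was at 124, 138 and 164 CPM in LM2 clone 1, LM2 clone 3 and bleomycin clone 1, against 311 and 278 CPM in controls, without overlap (log2 -1.05, adjusted p = 0.0588). FN1, fibronectin, was at 4670, 5608 and 6995 CPM against 9636 and 9699 CPM (log2 -0.75, adjusted p = 0.145). N-cadherin CDH2 was at 71.4, 152 and 121 CPM against 248 and 217 CPM (adjusted p = 0.162), and VIM at 2174, 3051 and 3080 CPM against 3330 and 3601 CPM (adjusted p = 0.392). The mesenchymal matrix list had 30 members tested, 0 called and a median of -0.11. Within it THBS1, MMP2 and FSTL1 were past -1 in all 3 ratios, whereas COL1A1, COL1A2 and POSTN were past 1 in all 3. COL1A1, also a fibroblast marker, was at 90.4, 712 and 195 CPM against 36.3 and 29.8 CPM (adjusted p = 0.15), and it is 1 of the 2 genes that carried the fibroblast marker sum given above.

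No listed gene of mitosis, G1/S and replication, glycolysis and hypoxia or oxidative phosphorylation was past 2-fold in all 3 lung libraries. On the list of cell cycle inhibitors and dormancy, 2 of 27 tested fell, against 0.23% of all genes tested. On that list 3 members were past -1 in all 3 ratios, against 2.92% of all genes tested. MKI67, a marker of cycling cells, was at 686, 881 and 957 CPM in LM2 clone 1, LM2 clone 3 and bleomycin clone 1, against 716 and 853 CPM in controls, and the groups overlapped (log2 0.10, adjusted p = 0.786). None of 38 mitotic genes and none of 30 genes of G1/S and replication passed or were past 1 in all 3 ratios. Their median fitted changes were 0.27 and -0.30. Library medians of the mitotic list were -0.25, 0.28 and 0.64 in LM2 clone 1, LM2 clone 3 and bleomycin clone 1. Those of the G1/S list were -0.68, -0.11 and -0.16. Of the 30 G1/S genes, 15 were lower in all 3 lung libraries, which held for 29.1% of all genes tested. The lists of glycolysis and hypoxia (33 tested), oxidative phosphorylation (30), heat shock and proteasome (21), glucocorticoid targets (20) and the response to tissue dissociation (26) each had 0 called and 0 past 1 in all 3. Their median fitted changes lay between 0.09 and 0.23. For the dissociation list, library medians were 0.50 (LM2 clone 1), -0.18 (LM2 clone 3) and 0.40 (bleomycin clone 1). The part of dissociation in the results was not tested. The immediate early and MAPK list had 16 of 30 members higher in all 3, which held for 23.9% of all genes tested. It had 0 past 1 in all 3 and a median fitted change of 0.57. Its library medians were 0.84, 0.09 and 0.64 in the same order. Percentages of mitochondrially encoded counts were 5.74, 6.04 and 7.08 in the lung libraries against 5.39 and 6.10 in controls.

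Beyond the genes called, 770 had all 3 ratios past 1 in 1 direction, 312 higher (1.99% of genes tested) and 458 lower (2.92%); 270 and 423 of these did not pass the test. The size of the change differed by library. Median ratios of the 312 were 2.86 (LM2 clone 1), 1.86 (LM2 clone 3) and 2.49 (bleomycin clone 1), and those of the 458 were -2.56, -1.59 and -2.10. LM2 clone 3 held the smallest ratio for 176 of the 312 and for 288 of the 458. Alone, LM2 clone 1 had 1407 genes past 1 (8.98% of genes tested) and 1968 past -1 (12.6%). LM2 clone 3 had 885 (5.65%) and 893 (5.7%), and bleomycin clone 1 had 1221 (7.79%) and 1277 (8.15%). The EGF-family ligands show the pattern: EREG was at 1962, 214 and 584 CPM in LM2 clone 1, LM2 clone 3 and bleomycin clone 1, against 91.1 and 90.1 CPM in controls, and did not pass (adjusted p = 0.156). TGFA, another ligand of the EGF receptor, was at 32.9, 10.04 and 15.8 CPM against 1.11 and 1.15 CPM (adjusted p = 0.0618), and EGFR itself at 993, 751 and 443 CPM against 741 and 627 CPM (adjusted p = 0.896). Among genes past -1, the VEGF receptor KDR was at 0.155, 6.52 and 1.73 CPM against 70.8 and 105 CPM (adjusted p = 0.0847).

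**Figure D3:**
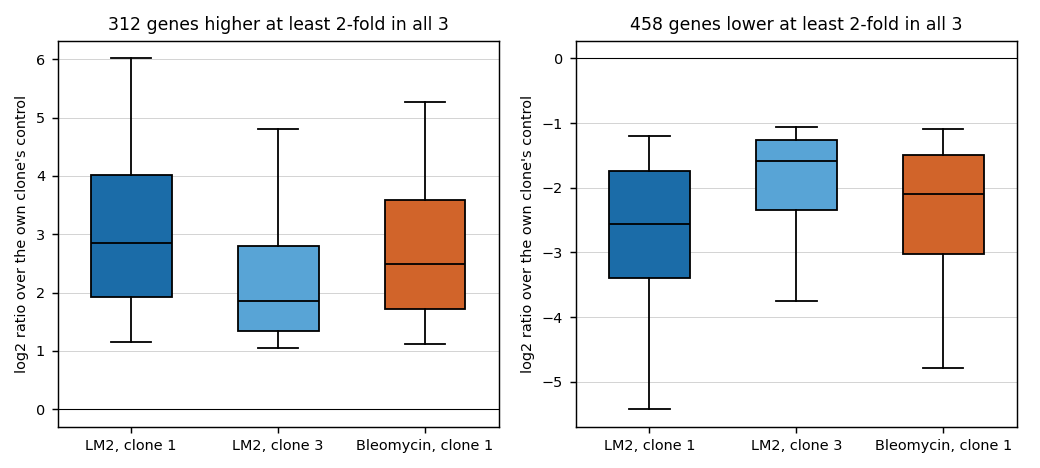
Log2 ratios over the control of the own clone for the 312 genes higher (left) and 458 genes lower (right) by at least 2-fold in all 3 lung libraries. Boxes span the quartiles with the median as a line, whiskers the 5th to 95th percentiles. Medians in LM2 clone 3, at 1.86 and -1.59, lie nearest 0.

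LM2 clone 1 also differed from the other libraries by chromosome. Over genes averaging at least 10 CPM, its median ratio was 0.38 on chromosome 4 (388 genes), 0.48 on chromosome 11 (530 genes) and 0.31 on chromosome 13 (181 genes). LM2 clone 3 was at 0.008, -0.029 and -0.088 on the same chromosomes, and bleomycin clone 1 at -0.028, 0.056 and 0.122. Of the 78 genes, 7 lie on these chromosomes: SORCS2, CXCL10, ZNF518B and FRAS1 on 4, TSPAN18 on 11, and GAS6 and GAS6-DT on 13. The ratios of SORCS2 were 4.002, 4.41 and 3.97 in the same order of libraries, and those of GAS6 were -2.82, -2.76 and -2.84. Those of CXCL10 were 4.53, 3.36 and 4.45, and those of TSPAN18 were -5.79, -3.90 and -5.75. The part of the chromosome shift in these values was not tested. ZNF518B had the smallest change of the genes that rose, 2.11-fold (adjusted p = 0.0379, and 0.0705 with the clone block), with ratios of 1.14, 1.05 and 1.05.

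Split by trigger, few genes passed. Against control, 5 genes passed under LM2 (ITGB4, KRT75, RASIP1, S100A2 and SERPINA1, 0.0319% of genes tested) and 4 under bleomycin (ITGB4, KRT75, RASIP1 and SERPINA1, 0.0255%). These comparisons share their controls. S100A2, an S100 protein of the basal epidermis, was at 28.0 CPM in both LM2 libraries and at 6.35 CPM under bleomycin, against 0.970 and 1.29 CPM in controls. Between bleomycin and LM2, 0 of 15673 genes passed in edgeR (0%), 723 had an unadjusted p under 0.05, and a fit with the clone as a block also called 0. The comparison has 1 bleomycin library, whose spread is taken from the groups of 2, and the count was 1168 without LM2 clone 1 and 2969 without LM2 clone 3. Of the 78 genes, 5 had an unadjusted p under 0.05 in edgeR: ITGB4 (log2 bleomycin over LM2 -0.58, adjusted p = 0.926), KRT75 (-0.63, adjusted p = 0.926), KRT17 (-1.72, adjusted p = 0.926), CCN2 (-1.004, adjusted p = 0.926) and XAF1 (0.79, adjusted p = 0.926). A p that misses the threshold does not show that the triggers acted alike.

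The cultured ITGB4-high group is 1 library, whose spread is taken from the lung and control libraries. Against it, 17 genes differed from the lung libraries, 5 higher in lung cells (0.0319% of genes tested) and 12 lower (0.0766%), and 5 of the 17 were among the 78. STAT5A was at 8.97 to 11.3 CPM in lung cells against 0.511 CPM in ITGB4-high cells (log2 4.32, adjusted p = 0.0484). SORCS2 was at 10.4 CPM or more against 0.073 CPM, which is 1 count, and XAF1 at 47.8 CPM or more against 0.292 CPM (adjusted p = 0.0409 for both). TGFB2 was below its controls in lung cells but above ITGB4-high cells, which had 3.50 CPM (log2 3.26, adjusted p = 0.039). MYO1D was lower in lung cells, at 2.31 to 3.52 CPM, than in both controls and the ITGB4-high library at 50.7 CPM (log2 -4.10, adjusted p = 0.0368). Genes such as ITGB4 (log2 lung over ITGB4-high 0.08, adjusted p = 0.894), CELSR1 (0.01, adjusted p = 0.98), CCDC91 (-0.06, adjusted p = 0.957) and GAS6 (0.40, adjusted p = 0.345) did not differ detectably from it. The count of 17 was 0 without bleomycin or either control, 1432 without LM2 clone 1 and 37 without LM2 clone 3.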

How the data were processed

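Per the labels' protocols, poly(A) RNA was captured and sequencing libraries that keep strand were made with a KAPA mRNA HyperPrep kit. The submitters' processing notes name STAR 2.7.1a as a tool and hg38 as the build. The deposited values are whole-number counts per gene with no normalization. Which counter, annotation release and strand setting made them is not given in the sources used here, so overlapping genes and close paralogs are uncertain. Of 58336 genes, 58216 matched GENCODE release 29 (GRCh38), the source of gene coordinates.

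Groups were taken from the sample labels. All 6 libraries were fitted in 3 classes, lung, control and ITGB4-high, with the quasi-likelihood test of edgeR 4.0.16 under R 4.3.3, with TMM factors, robust fitting and filterByExpr at a minimum count of 10. This left 15673 genes and 3 residual degrees of freedom, with Benjamini-Hochberg adjustment and a threshold of 0.05. A fit with 4 groups served the comparisons of single triggers. Log2 ratios used CPM with a prior count of 2. DESeq2 1.42.0 and limma-voom (limma 3.58.1) were alternatives. The steps were tested on simulated data. A count of 0 allows up to 3 counts, a floor of 0.138 to 0.232 CPM. As reads carried no molecular identifiers, the floor covers counting error only. The p-values then reflect only how these libraries vary, since nothing in the sources says that libraries of a clone were separate cultures or animals.

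The genes, lists and tests were chosen with earlier results of these data known. Genes were named where all 3 ratios were past 1 in 1 direction, the adjusted p was under 0.05 and log2 CPM averaged at least 1 over the 5 ITGB4-low libraries, ranked by the smallest ratio, up to 25 each way. This rule left out antisense genes, pseudogenes and locus identifiers. Core genes of adhesion, the mesenchymal state, inflammation and cycling were added, with up to 4 members each way of each list and members whose ratios differed in sign. DSEL, ZNF518B, FRAS1, GAS6-DT, CELSR1, PRICKLE1, ENPP5, TMEM98, DST, EGFR, AXL, MERTK, TYRO3 and TGFB1 were named after their values were seen. Some genes are not reported here.

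The titles give the clone of each ITGB4-low library, and libraries of 1 clone were taken as a pair. The clone 1 minus clone 3 differences of the LM2 and control pairs correlated at 0.023 over 9382 genes. Promoters came from RefSeq.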

Additional observations from a re-analysis of the deposited data

Results flagged for a closer look

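In RNF43, S100A8 and S100A9, both LM2 lung libraries lay on 1 side of their controls and the bleomycin library on the other, by at least 2-fold in each direction for at least 1 library. The test of the difference itself did not pass for any of them in edgeR. S100A9, a calcium-binding alarmin of myeloid and stressed epithelial cells, was at 15.8 CPM in the bleomycin library and at 0.542 and 0.703 CPM in LM2 clones 1 and 3, against 1.66 and 1.52 CPM in controls (log2 bleomycin minus LM2 4.64, adjusted p = 0.59). Its partner S100A8 was at 3.78 CPM under bleomycin and at 0.155 and 0.320 CPM under LM2, against 0.970 and 0.873 CPM in controls (3.92, adjusted p = 0.863). RNF43, a ubiquitin ligase that removes WNT receptors, was at 0.577 CPM under bleomycin and at 12.3 and 5.05 CPM under LM2, against 1.66 and 0.873 CPM in controls (-3.89, adjusted p = 0.926). The 14 macrophage markers summed to 14.8 CPM under bleomycin and to 5.42 and 5.31 CPM under LM2, against 8.17 and 7.81 CPM in controls. Their part in the S100A8 and S100A9 values was not tested. As given above, these sums of human genes cannot show whether mouse host cells were present.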

How the results depend on the processing

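The count of 78 genes between lung and control was 79 with RLE factors, 67 with library totals, 59 without the ITGB4-high library and 97 with limma-voom. It was 2152 with no filter on low counts, 31 with the filter at 50 counts, 38 with the clone as a replicate block and 1278 with DESeq2. Leaving out 1 library gave 0 to 1012. Against ITGB4-high, 17 genes became 1406 with no filter and 0 with the filter at 50 (2424 at an unadjusted p under 0.05 in edgeR), and 0 to 1432 when 1 library was left out. Between bleomycin and LM2, 0 became 236 with no filter and 0 to 2969 when 1 library was left out. The 770 genes past 2-fold in all 3 ratios became 1653 at 1.5-fold and 219 at 4-fold, and 976 to 1808 when 1 library was left out, which leaves 2 ratios or, without control 1, 1 ratio to meet. Other settings kept them between 524 and 917. The causes of these shifts were not tested. Of 128 named genes, MKI67 alone changed direction, with a log2 change of 0.10 in the fit reported and -0.003 to 0.23 when 1 library was left out (negative without bleomycin clone 1 and without control 1). Of the 53 called among them, 24 passed with RLE factors, with the clone block and without ITGB4-high alike, among them ITGB4, KRT75, RASIP1, SERPINA1, STAT5A, XAF1, GAS6, CCN2 and TGFB2. With 3 or fewer counts in 1 group, no fold is given for KRT17 or ENPP5.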

Other observations

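Some listed genes had ratios past 2-fold in opposite directions among the lung libraries. SAA2, an acute phase protein, was at 28.8, 9.65 and 170 CPM in LM2 clone 1, LM2 clone 3 and bleomycin clone 1, against 15.0 and 43.8 CPM in controls 1 and 3, and SAA1 at 129, 41.4 and 439 CPM against 66.0 and 158 CPM. INHBA, a subunit of activins, was at 27.4, 0 and 0.385 CPM in the lung libraries, against 0.069 and 0.414 CPM in controls. FOSB, an immediate early transcription factor, was at 7.75, 9.46 and 15.6 CPM against 6.65 and 30.7 CPM. PDGFRA, a growth factor receptor also used as a fibroblast marker and named here after its values were seen, was at 449, 27.6 and 221 CPM against 32.6 and 35.2 CPM. Its ratio of -0.35 in LM2 clone 3 differed in sign from the others but was not past 2-fold. None of these genes passed in edgeR (adjusted p = 0.578 for SAA2, 0.632 for SAA1, 0.326 for INHBA, 0.508 for FOSB and 0.225 for PDGFRA).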
